A study of Mus musculus with 3 samples.

Results

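The genes described here encode the machinery of synaptic vesicles and of regulated exocytosis, the calcium-triggered release of stored vesicles and granules, in prostate tumors of TRAMP mice with and without Phf8. They were chosen by name, as 37 genes of SNARE proteins, synaptotagmins, complexins, Rab3 and Rab27 with their effectors, and active zone proteins, out of 46095 gene symbols in the deposited count table. All 37 are in the table, and 36 had enough counts to be tested among 18216 genes. Rph3a, which encodes the Rab effector rabphilin, was the one left out, with 1 read in TRAMP, 0 in Phf8-KO1 and 1 in Phf8-KO2.

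The series holds 3 libraries of prostate tumor tissue from male TRAMP mice, a C57BL/6 strain in which a viral SV40 oncoprotein expressed in the prostatic epithelium drives tumors, all 37 weeks old and with no treatment named. One library, called TRAMP, is from PHF8 wild-type mice. The other 2, Phf8-KO1 and Phf8-KO2, are from PHF8 knockout mice that carry the same transgene and came from crossing Phf8 knockout females with TRAMP males. Each library is 1 pool of RNA from 3 mice, so a standard deviation exists only between the Phf8-KO pools (n = 2), TRAMP has none, and the p-values measure the spread between these pools. PHF8 is a histone demethylase encoded on the X chromosome.

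In a bulk sample, fewer cells of a type and less RNA per cell cannot be told apart. Totals were 26747443 to 31876182 counts per library. Phf8 itself was at 19.4 CPM (counts scaled to the library size) in TRAMP, 15.0 in Phf8-KO1 and 15.9 in Phf8-KO2. The sources used here do not say which part of the gene the allele lacks, so these counts over the whole gene do not check the genotype. All 8 luminal prostate markers listed for this work were detected in each library, with the keratin gene Krt8 at 552, 683 and 736 CPM in that order. The 8 markers differed in direction, with 4 below TRAMP in both Phf8-KO pools and 3 above. Their summed level was 7715 (TRAMP), 7582 (Phf8-KO1) and 3025 CPM (Phf8-KO2).

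In neurons and endocrine cells a vesicle is held near the membrane by Rab proteins and their effectors, primed by Munc13 and CAPS proteins, and fused by a SNARE complex of syntaxin, SNAP-25 and VAMP once a synaptotagmin binds calcium. Active zone scaffolds fix the site of release at a synapse. Synaptophysin, encoded by Syp, is a stain by which pathologists recognise neuroendocrine tumors. Exocrine and other epithelial cells use related proteins, among them Rab3D, Rab27A and Rab27B, to release their secretory granules.

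The exocytosis genes lay in both directions. Among the members at a mean of 20 CPM or more, such as Rab3d, Rab27b, Unc13b and Vamp2, 0 of 11 differed by more than 2-fold in the fitted comparison of Phf8-KO with TRAMP, where 4.16% of all genes at that level were more than 2-fold lower and 14.4% higher. Cadps and Sytl5, among these 11, lay more than 2-fold from TRAMP in Phf8-KO1 and on its other side in Phf8-KO2. Among the less abundant members, 8 singled out by their values (Pclo, Syt4, Rab3c, Syn1, Snap25, Syt1, Cplx2 and Syp) stood 2.90 to 26.1 times higher in TRAMP than in Phf8-KO, with the counts of the Phf8-KO pools added together and scaled to library size. Other members known from neurons lay in both directions. Unc13a, Rims2 and Syn2 were also below TRAMP in both Phf8-KO pools. Rab3a, Cplx1, Sv2a and Syt13 lay above TRAMP in both Phf8-KO pools, and for Stx1a, Bsn, Snap91, Erc2, Rims1 and Sv2b the pools lay on either side. Unc13d was 5.58 times higher in Phf8-KO. In the quasi-likelihood test of edgeR, with p-values adjusted over all genes by Benjamini-Hochberg and a fold change over 2 required, 0 members passed in either direction, against 7 of 18216 genes lower (0.0384%) and 0 higher (0%). The smallest adjusted p of a member was 0.10, for Pclo. At an unadjusted p under 0.05, 9 members were lower and 3 higher, against 12.2% and 14.9% of all genes. DESeq2, the tool of the study's methods, called 6 members lower and 1 higher of 34 with an adjusted p, against 4.59% and 9.42% of all genes. Those 6 were Pclo, Syt4, Rab3c, Snap25, Syt1 and Cplx2, and the 1 higher was Unc13d.

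In the pools taken one by one, 17 of the 37 members lay below TRAMP in both Phf8-KO pools, 9 lay above it in both, and in 11 the Phf8-KO pools lay on either side. Among the 36 tested members these counts were 16, 9 and 11, and among all genes tested 42.8% lay below in both, 40.8% above in both and 16.3% on either side or level. The median log2 fold change of the tested members was -0.13, against 0.01 for all genes. In the fit, more than 2-fold lower were 10 members and more than 2-fold higher 4, against 16.1% and 17.5% of all genes. For Rims1 and Rab3b, among those 4, the Phf8-KO pools lay on either side of TRAMP.

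In RefSeq GRCm38.p6 Pclo lies at chr5:14514906-14863465, Snap25 at chr2:136713439-136782428, Syt1 at chr10:108497650-109010980, Rab3c at chr13:110054187-110280996, Cplx2 at chr13:54301964-54383923, Syn1 at chrX:20860511-20920918, Syp at chrX:7638580-7653256 and Unc13d at chr11:116062095-116078495. Exons of 14 of the 37 members overlap another annotated gene, among them Pclo, Syp, Syn1, Syt4 and Syt7, and reads of such pairs cannot be told apart here.

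**Figure D1:**
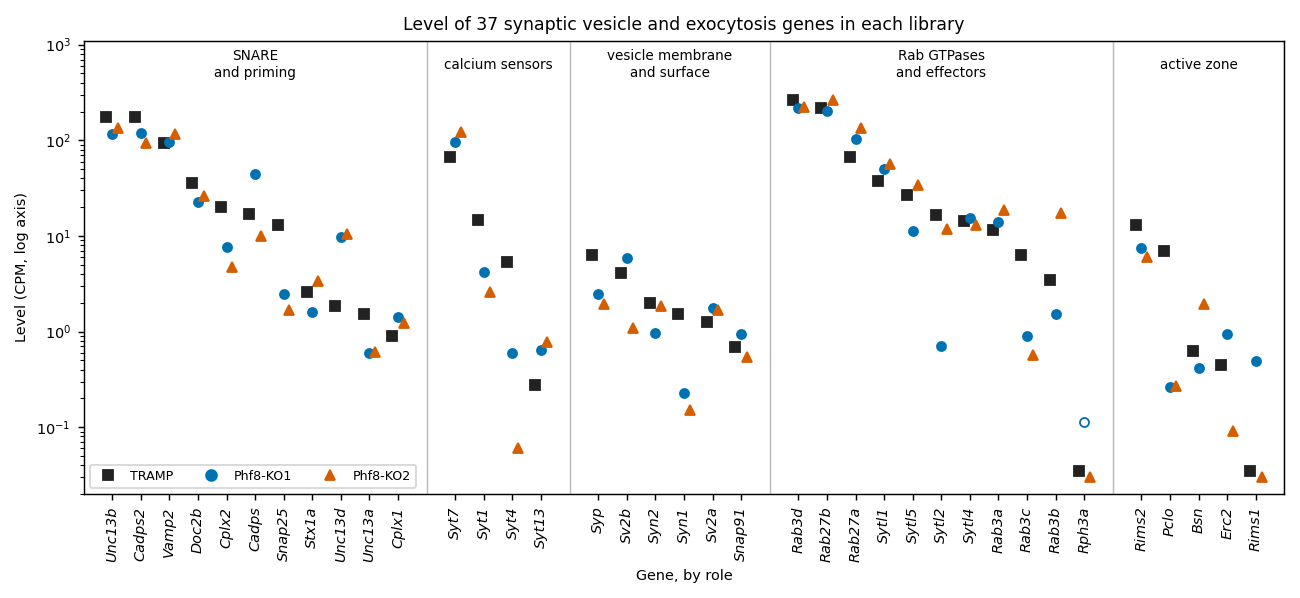
Level in CPM (log axis) of the 37 synaptic vesicle and exocytosis genes, grouped by role, where a square is TRAMP, a circle Phf8-KO1 and a triangle Phf8-KO2, each 1 pool of RNA from 3 mice. Rab3d lies highest, between 216 and 263 CPM, the points of Pclo are at 6.99 CPM (TRAMP), 0.263 CPM and 0.272 CPM, and the open circle is Rph3a in Phf8-KO1, with a count of 0, placed at the 3-count floor of 0.113 CPM.

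Among the core fusion proteins, Snap25, which encodes the SNARE protein SNAP-25 of the plasma membrane, was at 13.1 (TRAMP), 2.44 (Phf8-KO1) and 1.69 CPM (Phf8-KO2). Both Phf8-KO pools lay far below TRAMP and close to each other. The log2 fold change was -2.67 ± 0.46 (SE), with adjusted p 0.10 in edgeR and 0.0012 in DESeq2, and by counts alone TRAMP was 6.48 times Phf8-KO (95% counting interval 5.27 to 8.02). Its partners did not lie below TRAMP in both pools. Stx1a, the syntaxin of the same complex, was at 2.56 (TRAMP), 1.61 (Phf8-KO1) and 3.41 CPM (Phf8-KO2), so the Phf8-KO pools lay on either side of TRAMP. Vamp2, the vesicle SNARE, was at 93.1, 96.8 and 117 CPM in the same order, a log2 fold change of 0.20 ± 0.21 (SE).

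The complexin genes, whose small proteins bind the assembled SNARE complex, differed in direction. Cplx2 was at 19.97 (TRAMP), 7.69 (Phf8-KO1) and 4.71 CPM (Phf8-KO2), both Phf8-KO pools below TRAMP. Its log2 fold change was -1.69 ± 0.43 (SE), with adjusted p 0.13 in edgeR and 0.025 in DESeq2. Cplx1 was low in every library, at 0.900, 1.43 and 1.24 CPM, and its Phf8-KO pools lay slightly above TRAMP.

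The Munc13 genes, which prime vesicles for fusion, differed in direction. Unc13d encodes Munc13-4, which serves granule release in blood and other non-neuronal cells and is the form lost in an inherited defect of cytotoxic lymphocytes. It was at 1.83 (TRAMP), 9.83 (Phf8-KO1) and 10.6 CPM (Phf8-KO2). The Phf8-KO pools agreed closely and both stood above TRAMP, 5.58-fold by counts (95% counting interval 4.21 to 7.54). The log2 fold change was 2.47 ± 0.44 (SE), with adjusted p 0.10 in edgeR and 0.00052 in DESeq2. Unc13a, the main form at brain synapses, was at 1.52 CPM (TRAMP) against 0.601 and 0.604 CPM (Phf8-KO1 and Phf8-KO2), a log2 fold change of -1.33 ± 0.73 (SE). Unc13b, the abundant form here, was at 176, 115 and 135 CPM in TRAMP, Phf8-KO1 and Phf8-KO2, lower in both Phf8-KO pools by a log2 fold change of -0.49 ± 0.20 (SE).

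The CAPS proteins, encoded by Cadps and Cadps2, prime dense-core granules. Cadps2 was at 174 (TRAMP), 119 (Phf8-KO1) and 92.9 CPM (Phf8-KO2), and edgeR fitted a log2 fold change of -0.71 ± 0.24 (SE, adjusted p 0.17 in edgeR). Cadps depended on the pool, at 17.0 (TRAMP), 44.2 (Phf8-KO1) and 10.1 CPM (Phf8-KO2). Its level in Phf8-KO1 was 4.40 times that in Phf8-KO2 (95% counting interval 3.89 to 4.98), so its fitted log2 fold change of 0.67 averages values on either side of TRAMP. Doc2b, which encodes a calcium-binding protein of spontaneous release, was at 36.0, 22.4 and 26.3 CPM, lower in both Phf8-KO pools (log2 fold change -0.56 ± 0.21 SE). None of these 3 genes passed edgeR's quasi-likelihood test or DESeq2's.

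Synaptotagmins are the calcium sensors of release. Syt1, the fast sensor of synaptic vesicles, was at 14.5 (TRAMP), 4.24 (Phf8-KO1) and 2.60 CPM (Phf8-KO2), and edgeR fitted a log2 fold change of -2.09 ± 0.48 (SE, adjusted p 0.12 in edgeR and 0.012 in DESeq2). Syt4, found on dense-core granules, was at 5.30 (TRAMP), 0.601 (Phf8-KO1) and 0.0604 CPM (Phf8-KO2). These are 153, 16 and 2 reads, and the Phf8-KO pools, although both far below TRAMP, stood 9.95-fold apart (95% counting interval 2.34 to 89.2). The log2 fold change of Syt4 was accordingly imprecise, at -4.02 with a standard error of 1.28 (adjusted p 0.16 in edgeR and 0.039 in DESeq2). Syt7, a slower sensor of high calcium affinity used in endocrine and epithelial cells, went the other way, at 67.0, 95.2 and 124 CPM, above TRAMP in both Phf8-KO pools (log2 fold change 0.71 ± 0.25 SE, adjusted p 0.18 in edgeR). Syt13, an unusual synaptotagmin thought not to bind calcium, had 8 reads in TRAMP, 17 in Phf8-KO1 and 26 in Phf8-KO2.

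Of the proteins of the vesicle itself, the genes of synaptophysin and synapsin I lay lower in Phf8-KO. Syp was at 6.30 (TRAMP), 2.44 (Phf8-KO1) and 1.96 CPM (Phf8-KO2). The pools of Phf8-KO lay together below TRAMP, at 2.20 ± 0.338 CPM (SD, n = 2), and the log2 fold change was -1.52 ± 0.50 (SE) with adjusted p 0.17 in edgeR and 0.18 in DESeq2. Syn1, which encodes synapsin I, a protein tethering vesicles in the reserve pool, was at 1.52 CPM (TRAMP) against 0.225 and 0.151 CPM (Phf8-KO1 and Phf8-KO2), from 44, 6 and 5 reads. Its log2 fold change was -3.00 ± 0.87 (SE), with adjusted p 0.15 in edgeR and 0.24 in DESeq2. The related Syn2 was at 2.01, 0.976 and 1.87 CPM, with Phf8-KO2 close to TRAMP.

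The other vesicle genes showed no shared direction. Sv2a, encoding a vesicle glycoprotein that is the target of an antiepileptic drug, was at 1.25 CPM (TRAMP) against 1.76 and 1.66 CPM (Phf8-KO1 and Phf8-KO2). Its relative Sv2b was at 4.08 (TRAMP), 5.89 (Phf8-KO1) and 1.09 CPM (Phf8-KO2), on either side of TRAMP. Snap91, which encodes the clathrin assembly protein AP180, was under 1 CPM in each library, at 0.692, 0.938 and 0.543 CPM.

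The Rab GTPases held both the most abundant members and one of the lowest ratios. Rab3c, a form known mainly from brain, was at 6.30 (TRAMP), 0.901 (Phf8-KO1) and 0.573 CPM (Phf8-KO2). TRAMP stood 8.76-fold above Phf8-KO (95% counting interval 6.25 to 12.5), a log2 fold change of -3.09 ± 0.60 (SE), with adjusted p 0.11 in edgeR and 0.010 in DESeq2. Rab3d, the form of exocrine granules, was at 263 (TRAMP), 216 (Phf8-KO1) and 226 CPM (Phf8-KO2), a fitted log2 fold change of -0.26 ± 0.20 (SE). Rab3a, the main form of synaptic vesicles, was above TRAMP in both Phf8-KO pools, at 11.5, 14.0 and 18.9 CPM (log2 fold change 0.52 ± 0.33 SE). Rab3b depended on the pool, at 3.43 (TRAMP), 1.54 (Phf8-KO1) and 17.2 CPM (Phf8-KO2), an 11.2-fold gap between the Phf8-KO pools (95% counting interval 8.15 to 15.8). Of the 4 Rab3 genes, Rab3c and Rab3d thus lay below TRAMP in both Phf8-KO pools, Rab3a above it in both and Rab3b on either side, and the difference between them was not tested.

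Rab27 proteins dock granules through effectors of the synaptotagmin-like family. Rab27a was at 67.6 (TRAMP), 103 (Phf8-KO1) and 133 CPM (Phf8-KO2), and edgeR fitted a log2 fold change of 0.81 ± 0.25 (SE, adjusted p 0.16 in edgeR and 0.081 in DESeq2). Rab27b was at 217, 201 and 261 CPM, with the Phf8-KO pools on either side of TRAMP and a fitted log2 fold change of 0.09 that was -0.06 under upper quartile scaling. Among the effectors, Sytl1 lay above TRAMP in both Phf8-KO pools, at 37.6, 50.7 and 56.3 CPM (log2 fold change 0.51 ± 0.20 SE). Sytl4, the effector known as granuphilin, differed little, at 14.3, 15.2 and 13.2 CPM.

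For Sytl2 and Sytl5 a single pool set the difference. Sytl2 had 480 reads in TRAMP and 391 in Phf8-KO2 (16.6 and 11.8 CPM) but 19 in Phf8-KO1 (0.713 CPM). Its fitted log2 fold change of -1.40 ± 1.52 (SE) is that of neither Phf8-KO pool. Sytl5 was at 26.7 (TRAMP), 11.4 (Phf8-KO1) and 33.7 CPM (Phf8-KO2). In all, 10 of 36 tested members lay more than 2-fold apart between the Phf8-KO pools, against 19.8% of all genes, 5 of them higher in Phf8-KO1 (Syt4, Rims1, Cadps, Sv2b and Erc2) and 5 higher in Phf8-KO2 (Stx1a, Rab3b, Bsn, Sytl2 and Sytl5).

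Of the active zone scaffolds, Pclo had the lowest ratio of all members. Pclo encodes piccolo, a very large scaffold protein of the presynaptic membrane. Its counts were 202 in TRAMP, 7 in Phf8-KO1 and 9 in Phf8-KO2, or 6.99, 0.263 and 0.272 CPM. The Phf8-KO pools did not differ beyond counting error, and TRAMP stood 26.1-fold above them (95% counting interval 15.7 to 46.6), a log2 fold change of -4.69 ± 0.57 (SE), with adjusted p 0.10 in edgeR and 6e-05 in DESeq2. Bsn, encoding bassoon, the partner of piccolo, was at 0.623 (TRAMP), 0.413 (Phf8-KO1) and 1.96 CPM (Phf8-KO2), on either side of TRAMP.

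Rims2, a scaffold that binds Rab3 and Munc13 and is also used in endocrine cells, was at 12.9 (TRAMP), 7.43 (Phf8-KO1) and 5.98 CPM (Phf8-KO2), and edgeR fitted a log2 fold change of -0.95 ± 0.37 (SE, adjusted p 0.21 in edgeR). Its relative Rims1 had 1 read in TRAMP and in Phf8-KO2 and 13 reads in Phf8-KO1. The fitted log2 fold change of Rims1, 2.73, therefore rests on Phf8-KO1 alone. Erc2, another scaffold gene, had 13, 25 and 3 reads in TRAMP, Phf8-KO1 and Phf8-KO2.

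**Figure D2:**
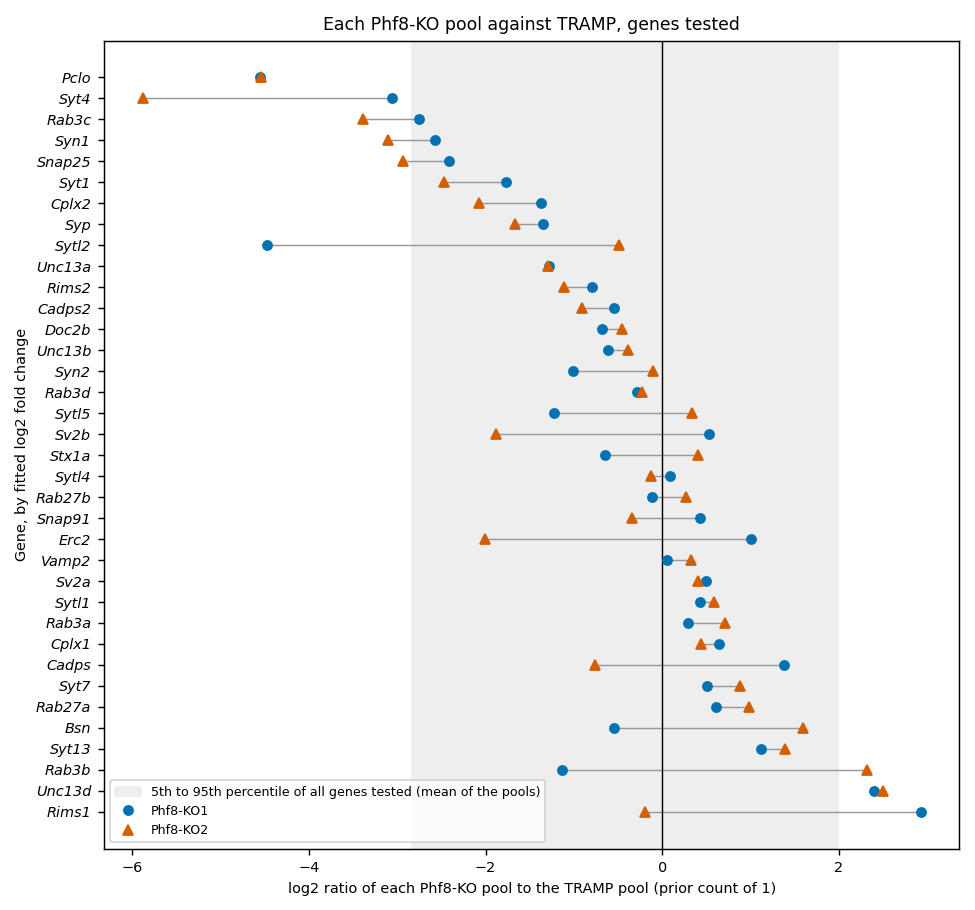
log2 ratio of each Phf8-KO pool to the TRAMP pool (prior count of 1) for the 36 tested members, ordered by fitted log2 fold change, with circles for Phf8-KO1, triangles for Phf8-KO2, a line joining the pools of a gene, and a grey band from the 5th to the 95th percentile of all genes tested (mean of the pools). Pclo lies near -4.55 in both pools, Unc13d lies right of the band in both, and for Sytl2, Rab3b and Cadps the pools lie far apart.

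Against the spread of all genes tested, 5 members lay below the lowest 5% in Phf8-KO1 and 3 in Phf8-KO2, and 2 lay above the highest 5% in each pool. The median log2 ratio of the tested members to TRAMP was -0.54 for Phf8-KO1, where all genes had -0.01, and -0.28 for Phf8-KO2, where all genes had -0.05.

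The promoters of 4 members are shown because they stand at the ends of the range of change and level. Pclo, Rab3c and Syn1 had the lowest log2 fold changes among members with a RefSeq promoter, and Rab3d was the most abundant member. Each is the 250 bases before a transcript start in GRCm38.p6, written along the strand of the gene. For Rab3c that start lies inside the gene (chr13:110054187-110280996), so its bases are not upstream of the whole gene. Of the 37 members, 27 matched the RefSeq promoter table, with 36 windows of 250 bases before and 50 after a start. Capitals mark the letters searched for on both strands: TTCAGCACC and GGACAG (the first and second parts of the site of REST, a repressor of neuronal genes), TGTTTAC (forkhead), TGACGTCA (cyclic AMP response element) and CAGCTG (an E-box), of which the last 2 read the same on both strands.
Pclo, chr5:14514668-14514917, plus strand: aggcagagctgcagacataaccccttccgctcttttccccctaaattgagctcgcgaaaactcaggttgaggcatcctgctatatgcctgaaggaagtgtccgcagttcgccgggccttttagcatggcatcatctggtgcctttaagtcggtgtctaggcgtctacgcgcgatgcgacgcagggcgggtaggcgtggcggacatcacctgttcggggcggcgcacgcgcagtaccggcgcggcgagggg
Rab3c, chr13:110280207-110280456, minus strand: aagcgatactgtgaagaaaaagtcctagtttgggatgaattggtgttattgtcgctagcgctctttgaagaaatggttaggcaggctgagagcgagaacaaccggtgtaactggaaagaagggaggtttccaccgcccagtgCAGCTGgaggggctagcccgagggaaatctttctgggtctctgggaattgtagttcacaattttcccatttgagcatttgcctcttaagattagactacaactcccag
Syn1, chrX:20920919-20921168, minus strand: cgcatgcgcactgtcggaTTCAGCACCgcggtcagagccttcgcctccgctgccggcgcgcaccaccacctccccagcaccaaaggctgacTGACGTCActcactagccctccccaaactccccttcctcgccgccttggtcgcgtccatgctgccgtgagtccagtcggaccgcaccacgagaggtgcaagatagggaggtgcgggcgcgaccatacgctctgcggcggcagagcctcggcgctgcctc
Rab3d, chr9:21918184-21918433, minus strand: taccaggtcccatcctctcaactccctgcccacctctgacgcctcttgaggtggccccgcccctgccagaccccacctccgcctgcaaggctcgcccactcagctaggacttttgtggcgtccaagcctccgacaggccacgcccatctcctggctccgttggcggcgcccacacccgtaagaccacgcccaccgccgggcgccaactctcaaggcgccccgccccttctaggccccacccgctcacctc

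TTCAGCACC was in the windows of Syn1 and Unc13a, 2 of 36, against 0.371% of 32851 windows of all genes. GGACAG was in 8 of 36 windows, against 22.2% of all, and was not in the Syn1 window. TGACGTCA was in 1 of 36 (Syn1), against 1.79%, and TGTTTAC in 0 of 36, against 3.65%. CAGCTG was in 11 of 36 windows, one each of Bsn, Cplx1, Cplx2, Rab27a, Rab3a, Rab3c, Rph3a, Stx1a, Sv2a, Syt1 and Sytl1, against 16.3% of all windows. These genes lie in both directions of change, with Cplx2, Rab3c and Syt1 below TRAMP in both Phf8-KO pools and Cplx1, Rab27a, Rab3a, Sv2a and Sytl1 above it in both. Rest, the gene of the REST repressor, was at 7.44 (TRAMP), 9.31 (Phf8-KO1) and 11.5 CPM (Phf8-KO2), a fitted log2 fold change of 0.48 ± 0.38 (SE).

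Levels of different genes were compared as CPM per kilobase of merged exons. On that scale Rab3d stood first in each library, at 62.8 in TRAMP, 51.4 in Phf8-KO1 and 53.8 in Phf8-KO2. The 6 highest in TRAMP, namely Rab3d, Vamp2, Rab27b, Cadps2, Rab27a and Sytl1, took 71.2% of the summed CPM per kilobase of the 37 members in TRAMP, 75.7% in Phf8-KO1 and 71.9% in Phf8-KO2. Snap25 was 14th of 37 in TRAMP, at 1.93, and 24th and 25th in the Phf8-KO pools, at 0.359 and 0.249. Syt4 moved from 16th to 26th and 33rd, Pclo from 28th to 36th and 34th, and Unc13d from 27th to 14th in both. The summed level of the 37 genes was 1325, 1158 and 1317 CPM in TRAMP, Phf8-KO1 and Phf8-KO2. The 6 genes that DESeq2 called lower made up a small part of it, with sums of 66.2, 16.1 and 9.90 CPM in the same order.

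Split at a mean of 20 CPM over the 3 libraries, 11 tested members were above and 25 below. Above, the log2 fold changes ran from -0.71 to 0.81 with a median of 0.09, and 0 of 11 were more than 2-fold lower or higher, against 4.16% and 14.4% of all genes at that level. Below, they ran from -4.69 to 2.73, and 10 were more than 2-fold lower and 4 higher, against 25.9% and 19.98% of all genes at that level. Of those 4, Rims1 and Rab3b had Phf8-KO pools on either side of TRAMP. Sytl2, among the 10, was more than 2-fold lower in Phf8-KO1 only. Of the 11 above the split, Cadps was more than 2-fold higher and Sytl5 more than 2-fold lower in Phf8-KO1 (log2 ratios to TRAMP 1.38 and -1.23). Both lay on the other side of TRAMP in Phf8-KO2 (-0.76 and 0.34), so their fitted values average opposite differences. The median was -0.23 for the members below and -0.12 for all genes below.

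**Figure D3:**
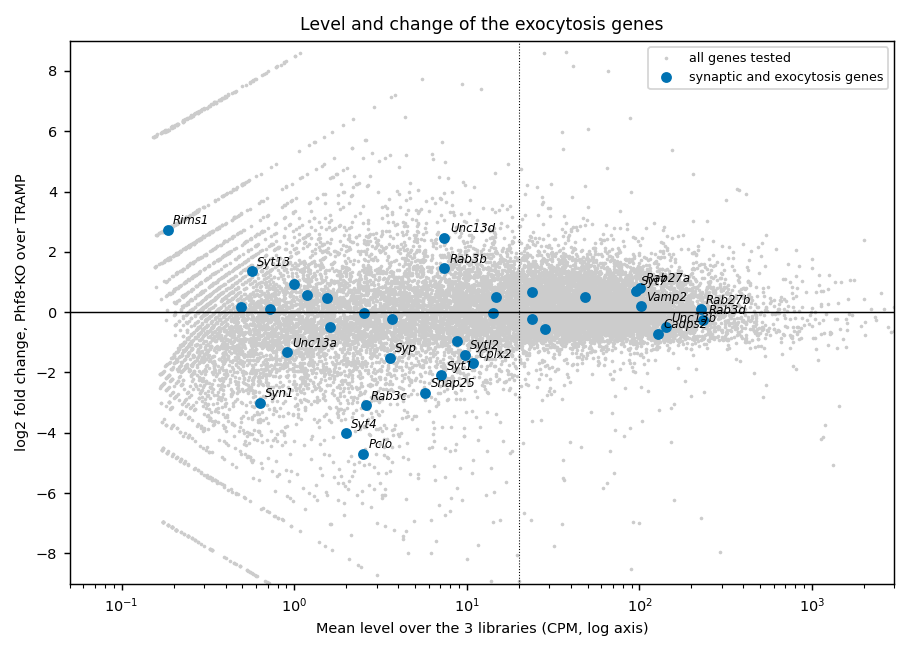
Fitted log2 fold change of Phf8-KO over TRAMP against the mean level over the 3 libraries (CPM, log axis), with all 18216 genes tested in grey (those within the axes) and the 36 tested members in blue. The dotted line marks 20 CPM, and the 11 members right of it lie between -0.71 and 0.81.

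Other genes of the pathway, 75 in 5 lists, also lay in both directions. Of the 66 tested, 0 passed edgeR's quasi-likelihood test, and at an unadjusted p under 0.05, 6 were lower and 8 higher, against 12.2% and 14.9% of all genes. DESeq2 called 2 lower and 2 higher of 64 with an adjusted p, against 4.59% and 9.42% of all genes. Of 17 other SNARE and SNARE-binding genes, 8 lay below TRAMP in both Phf8-KO pools and 7 above. Vamp8, the vesicle SNARE of exocrine and blood cell granules, was at 49.7 (TRAMP), 2.10 (Phf8-KO1) and 1.81 CPM (Phf8-KO2), and edgeR fitted a log2 fold change of -4.66 ± 0.26 (SE, adjusted p 0.10 in edgeR, called lower by DESeq2). Nsf, which encodes the ATPase that takes SNARE complexes apart, was at 19.8, 35.5 and 37.4 CPM.

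Of 16 vesicle membrane genes and transmitter transporters, 9 lay below TRAMP in both Phf8-KO pools and 3 above. Slc18a2, the vesicular monoamine transporter of neurons, endocrine and mast cells, had 535 reads in TRAMP, 4 in Phf8-KO1 and 0 in Phf8-KO2, or 18.5, 0.150 and 0 CPM. Its adjusted p was 0.10 from edgeR's quasi-likelihood test and 0.11 from DESeq2. Slc17a6, a glutamate transporter gene, had 0 counts in all 3 libraries, and Slc32a1, of inhibitory neurons, had 0, 1 and 2 reads. Syngr2, a synaptogyrin gene expressed outside the nervous system, was at 135, 242 and 243 CPM.

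Of 19 other synaptotagmin, C2-domain and complexin genes, 6 lay below TRAMP in both Phf8-KO pools and 5 above, with Syt14 at 2.49, 0.263 and 0.211 CPM and Syt12 at 0.242, 1.80 and 2.14 CPM. Of 15 active zone and Rab effector genes, 5 lay below and 6 above. Rimbp2, encoding a scaffold that links RIM proteins to calcium channels, was at 2.42, 0.150 and 0.0905 CPM and was called lower by DESeq2. Erc1, the widely expressed relative of Erc2, was at 13.4, 31.4 and 28.8 CPM and was called higher. Of 8 vesicle recycling genes, 4 lay below and 4 above, with Itsn1 at 14.4, 30.1 and 25.4 CPM and Ap3b2, a neuronal adaptor subunit, at 3.77, 1.28 and 0.573 CPM.

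Markers of other cell types that use this machinery differed between the libraries as well, with sums lower in both Phf8-KO pools for neuroendocrine cells and cytotoxic lymphocytes, higher in both for Schwann and mast cells, and on either side for neurons. Most single Schwann and mast cell markers nonetheless lay below TRAMP in both Phf8-KO pools. Of 13 neuroendocrine cell markers, 10 lay below TRAMP in both Phf8-KO pools and 0 above, and their summed level was 231 CPM (TRAMP) against 111 and 48.3 CPM (Phf8-KO1 and Phf8-KO2). DESeq2 called 5 of the 12 with an adjusted p lower, against 4.59% of all genes, and edgeR's quasi-likelihood test 0. Neurod1, a transcription factor gene of neuroendocrine cells, had 0 counts in every library. Of 12 neuron and nerve fibre markers, 7 lay below and 1 above, with sums of 41.9 (TRAMP), 46.6 (Phf8-KO1) and 19.3 CPM (Phf8-KO2). All 12 were detected in TRAMP, and Dbh was at 0 in Phf8-KO2. Of 7 Schwann cell markers, 5 lay below and 1 above, summing to 69.5, 107 and 125 CPM, most of it Mbp, with Cdh19 and Sox10 at 0 in Phf8-KO2.

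Of 8 mast cell markers, 6 lay below TRAMP in both Phf8-KO pools, summing to 28.5, 44.7 and 61.7 CPM. Kit, which other cells also express, made up most of that sum in the Phf8-KO pools, at 7.37, 39.8 and 60.2 CPM, whereas Cpa3 was at 5.61, 0.863 and 0.332 CPM, and Ms4a2 had 0 counts in Phf8-KO1. All 8 cytotoxic lymphocyte markers lay below, summing to 71.4 CPM (TRAMP) against 17.6 and 11.1 CPM (Phf8-KO1 and Phf8-KO2), with Ncr1 at 0 in Phf8-KO1, and DESeq2 called 2 of the 6 with an adjusted p lower, against the same 4.59%. Unc13d, whose product these lymphocytes use, was higher in the same pools. Platelet markers summed to 1.31 CPM or less, with Ppbp and Gp1ba at 0 throughout.

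Markers of tissues outside the epithelium also separated the libraries. All 10 skeletal muscle markers lay below TRAMP in both Phf8-KO pools, summing to 1686 CPM (TRAMP) against 73.8 and 17.1 CPM (Phf8-KO1 and Phf8-KO2), as did all 7 adipocyte markers, at 690, 19.8 and 30.8 CPM. Skeletal muscle was the one list with calls in edgeR's quasi-likelihood test, 4 lower. DESeq2 called 8 of 10 skeletal muscle markers and 4 of 7 adipocyte markers lower, against 4.59% of all genes. Apart from the lists given above, it called 1 of 8 mast cell and 2 of 6 goblet cell markers lower. As many of each were called higher, with 1 of 12 neuron, 1 of 8 smooth muscle and 1 of 8 luminal markers, against 9.42%. Some markers of these lists had no adjusted p. Smooth muscle markers separated the Phf8-KO pools, at 685 (TRAMP), 5103 (Phf8-KO1) and 384 CPM (Phf8-KO2). Goblet cell markers summed to 809, 596 and 2687 CPM, and luminal prostate markers to 7715, 7582 and 3025 CPM. The part of these cell types in the levels of Pclo, Syt4, Rab3c, Snap25, Syt1, Cplx2, Syp, Syn1 and Unc13d was not tested, and with 1 TRAMP pool genotype, cell makeup and the mice of a pool cannot be told apart.

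**Figure D4:**
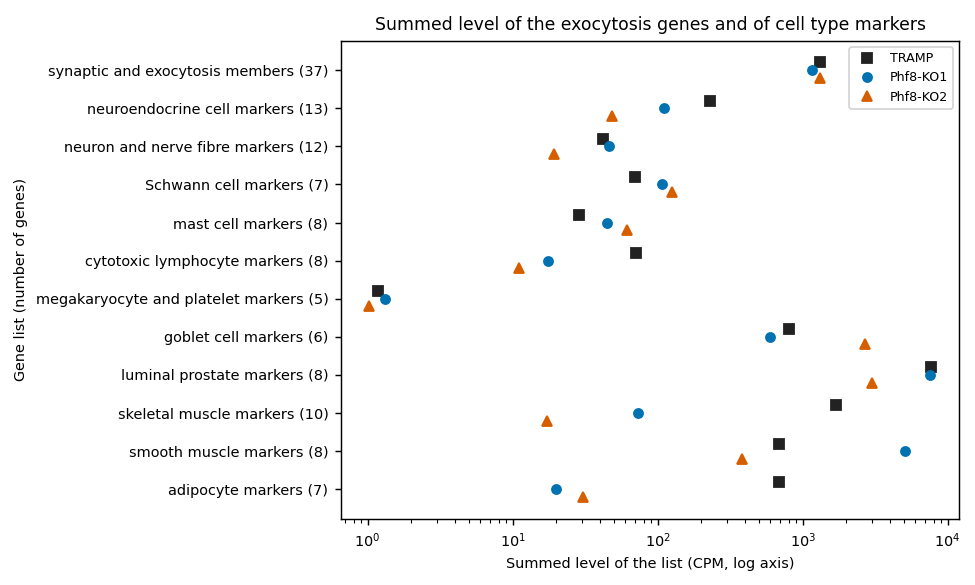
Summed level in CPM (log axis) of the 37 synaptic vesicle and exocytosis genes and of 11 lists of cell type markers, with the number of genes in brackets, a square for TRAMP, a circle for Phf8-KO1 and a triangle for Phf8-KO2. The exocytosis genes sum to 1158 to 1325 CPM in each library, while neuroendocrine markers go from 231 CPM in TRAMP to 111 and 48.3 CPM.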

How the data were processed

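RNA of prostate tumors was sequenced as 1 TRAMP pool and 2 Phf8-KO pools of 3 mice each. Per the study's methods, filtered reads were mapped with HISAT2 to GRCm38 and HTSeq gave the number of reads in each gene, which the authors deposited as raw counts. The annotation release, the tool versions and whether strand was used are not given in the sources used here, so for the 14 of 37 members whose exons overlap another GENCODE gene (among them Pclo, Syp, Syt4, Syt7, Syn1, Unc13a, Rab3a and Rab27a) reads of both genes cannot be told apart, nor can reads shared by close relatives.

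Counts were scaled by TMM, filtered with filterByExpr by group and tested across 18216 genes with edgeR's quasi-likelihood test at its default setting (R 4.3.3, edgeR 4.0.16), and a gene was called where its adjusted p was under 0.05 with over 2-fold change. DESeq2 1.42.0 and limma-voom (limma 3.58.1) were alternatives. DESeq2 gave no adjusted p for 9488 of 25757 genes. The 1 residual degree of freedom comes from the Phf8-KO pools, and each test also draws on variability estimated across all genes. The SE of a log2 fold change was taken as its size over the square root of F. Counting intervals (95%, exact) and the floor of 3 counts (0.104, 0.113 and 0.0905 CPM in TRAMP, Phf8-KO1 and Phf8-KO2) cover counting error only. Exon lengths come from GENCODE M21, coordinates and promoters from RefSeq GRCm38.p6. The analysis was run on simulated counts with large planted changes and a fixed spread. That run checked the direction of change, and it does not say how reliable the calls in these pools are. All members may be named, and of each other list up to 4 genes with the smallest p. Neurod1, Slc17a6, Slc32a1, Krt8, Rest and the markers named for a count of 0 were chosen after their values were seen. The members and lists were chosen with earlier results of these data known. Some genes of the other lists are not reported here by name.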

Additional observations from a re-analysis of the deposited data

How the results depend on the processing

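No paired analysis was possible because TRAMP is a single pool with no partner among the Phf8-KO pools. Against 0 members and 0 other pathway genes called in edgeR's quasi-likelihood test, the members called lower and higher numbered 6 and 1 with no filter on low counts, 6 and 1 with DESeq2, and 6 and 1 with edgeR's likelihood ratio test, and the other pathway genes called lower and higher numbered 4 and 2, 2 and 2, and 4 and 2 in that order. With library size scaling 1 other pathway gene was called lower. The other settings called 0. DESeq2 and the fit without a filter called Pclo, Syt4, Rab3c, Snap25, Syt1, Cplx2 and Unc13d, and the likelihood ratio test called Syn1 in place of Cplx2. The adjusted p of Pclo, 0.10 in edgeR's quasi-likelihood test, ran from 1.5e-05 with the likelihood ratio test to 0.11 at a mean CPM of at least 1. The median log2 fold change of the members, -0.13, was -0.32 with limma-voom, -0.28 at a mean CPM of at least 1, -0.27 with upper quartile scaling, -0.22 with DESeq2, -0.21 with no filter on low counts and -0.0435 with library size scaling. That of the other pathway genes, -0.01, was -0.16 with upper quartile scaling, 0.0638 with library size scaling, 0.0578 with no filter on low counts, 0.0532 at a mean CPM of at least 1 and 0.0505 with DESeq2. Upper quartile scaling moved the median of all genes to -0.14, and members of small change then turned sign, with Rab27b at -0.0622 and Snap91 at -0.0502. Stx1a was at 0.0624 and Sytl4 at 0.0617 with library size scaling, Sytl4 at 0.00799 with no filter, and Erc2 at -0.66 with limma-voom. The cause was not tested. Leaving out a Phf8-KO pool gives values with no test. The members on one side of TRAMP were then counted in 1 pool, 22 or 23 lower and 14 or 15 higher, their median log2 fold change was -0.56 to -0.25, and that of the other pathway genes -0.19 to -0.0676. Phf8-KO1 alone gave the lowest of these medians. For Rph3a, with 1 read or none in each library, a difference was not detectable at this depth.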
